A study of Mus musculus with 22 samples.

Results

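The Kruppel-like factor (KLF) family was followed as 9 genes, Klf2, Klf3, Klf4, Klf5, Klf6, Klf7, Klf9, Klf10 and Klf13, taken by symbol from the 34489 genes of the count table. All 9 were measured in all 22 bulk RNA-seq libraries of mouse cells, and all 9 passed the filter on low counts in every comparison. KLF proteins bind GC-rich and CACCC-type DNA through C-terminal zinc fingers, and their N-terminal parts recruit coactivators or corepressors. Klf2, Klf4 and Klf5 belong to the circuit that sustains naive pluripotency, the state of the preimplantation epiblast. They are shut down or lowered when cells pass to the primed state of the postimplantation epiblast.

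The study asked whether activators of AMP-activated protein kinase (AMPK) return primed mouse epiblast stem cells (mEpiSCs) to a naive state. The naive control was 1 library of Rex1-GFP embryonic stem cells kept in 2iL, a medium with inhibitors of MEK and GSK3 and with the cytokine LIF. Primed cells, grown in FGF2 and Activin, were 1 library of Oct4GIP, a line with an Oct4-driven GFP reporter, and 1 library of 129/MSM, a line from 129 and MSM parents. Whole Oct4GIP cultures were sequenced at d8 and at d16 after transfer to Basal medium, 2iL, AICAR or AICAR+LIF, with 1 library for each medium and day. Reverted cells had been treated for 16 days and then expanded in 2iL. After 2 or 3 passages (d16+2p and d16+3p) they were 4 Oct4GIP libraries, 1 of AICAR and 1 of AICAR+LIF at each passage number. After 10 passages (d16+10p) they were 2 libraries of 129/MSM, treated with AICAR or AICAR+LIF, and 5 of Oct4GIP. The latter had received AICAR or A769662, each with and without LIF, or metformin+LIF. AICAR, A769662 and metformin all activate AMPK. No condition had a second library, so that libraries of one state stood in as samples of it. In comparisons between states, p-values measure a spread that includes activator, passage, line and culture medium. Tests among whole cultures hold 1 line and no passages, so that their spread is between media and days. No test was run between the naive library and another state.

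Whole cultures were grown on mouse embryonic fibroblast (MEF) feeders, as were primed 129/MSM cells, whereas primed Oct4GIP cells were kept on fibronectin and naive and reverted cells on gelatin. Reads of feeders and of other cell types were not separated, and in bulk RNA fewer cells of a type cannot be told apart from less RNA per cell. Levels are given as CPM, the count divided by the library's total and scaled by edgeR's TMM factor. The summed level of 14 fibroblast markers, among them Col1a1, Thy1 and Pdgfra, was 30.7 CPM in the naive library, 30.6 to 60.6 CPM at d16+10p and 24.8 to 126 CPM at d16+2p and d16+3p. It was 187 CPM in primed Oct4GIP, 1065 CPM in primed 129/MSM, 3447 to 3738 CPM at d8 and 6312 to 54316 CPM at d16. The naive markers Zfp42, Esrrb, Tfcp2l1 and Nr5a2 summed to 2721 CPM in the naive library and to 1806 to 3324 CPM in the 11 reverted libraries. In the primed libraries and the whole cultures they summed to at most 19.6 CPM. The primed markers Fgf5, Otx2, Dnmt3b and Pou3f1 summed to 374 and 1668 CPM in the primed libraries to 450 to 596 CPM at d16+2p and d16+3p, to 51.5 to 235 CPM at d16+10p and to 12.6 to 118 CPM in whole cultures. This set therefore did not mark primed libraries alone, and whole cultures overlapped d16+10p in it. Total counts ran from 438771 in AICAR+LIF d8 to 5290163 in Basal d16, and 3 counts, taken as the detection floor, stood for 5.75 and 0.556 CPM in these libraries. Such floors cover counting error only.

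Promoters are shown for Klf2 and Klf4, which both rose from primed to reverted cells, and for Klf6, which fell. The letters come from RefSeq on GRCm38.p6, read 5′ to 3′ on the strand of the gene and ending just before its annotated start. Capitals mark GGGCGG or its reverse complement CCGCCC, the GC box bound by SP and KLF proteins, and CACCC or its reverse complement GGGTG. Overlapping matches were both counted. The windows are chr8:72318812-72319032 on the plus strand for Klf2, chr4:55532476-55532725 on the minus strand for Klf4 and chr13:5861239-5861481 on the plus strand for Klf6.
Klf2: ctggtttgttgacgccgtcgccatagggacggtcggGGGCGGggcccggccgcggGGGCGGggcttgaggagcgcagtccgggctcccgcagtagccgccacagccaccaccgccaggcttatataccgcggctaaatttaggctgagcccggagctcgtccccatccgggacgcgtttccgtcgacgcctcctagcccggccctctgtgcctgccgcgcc
Klf4: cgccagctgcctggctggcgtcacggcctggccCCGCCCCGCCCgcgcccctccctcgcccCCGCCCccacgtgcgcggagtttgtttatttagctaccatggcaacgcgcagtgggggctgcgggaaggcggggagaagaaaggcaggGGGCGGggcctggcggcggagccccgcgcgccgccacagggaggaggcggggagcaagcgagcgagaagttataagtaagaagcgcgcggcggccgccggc
Klf6: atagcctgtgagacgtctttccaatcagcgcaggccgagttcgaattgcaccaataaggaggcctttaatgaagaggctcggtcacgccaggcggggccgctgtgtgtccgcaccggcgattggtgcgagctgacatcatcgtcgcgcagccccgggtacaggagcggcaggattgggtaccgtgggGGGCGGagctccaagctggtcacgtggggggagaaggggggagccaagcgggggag
The GC box occurred 2 times in the Klf2 stretch, 4 times in that of Klf4 and 1 time in that of Klf6, and none of the 3 held a CACCC match. In windows of 300 bases around the start, 6 of the 7 members in the promoter table (Klf2, Klf3, Klf4, Klf6, Klf7, Klf9 and Klf13) held a GC box, against 35.66% of 32851 promoters. CACCC was found in 5 of the 7, against 57.52% of promoters. The letters TTCNNNGAA, which contain the core of a STAT site, were found only in the window of Klf9, against 8.298% of promoters. A match is a description of these letters and not evidence of binding.

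Klf2 and Klf4 showed the widest range of the family. Klf2 (chromosome 8, 72319033 to 72321656, plus strand), a factor that with Klf4 and Klf5 maintains naive self-renewal, stood at 345 CPM in the naive library. It stood at 0.374 CPM in primed Oct4GIP, which was 1 count, and at 4.83 CPM in primed 129/MSM, which was 15 counts. At d16+10p it was between 158 and 300 CPM with a median of 237 CPM. At d16+2p it was 230 CPM for AICAR and 203 CPM for AICAR+LIF, and at d16+3p 328 and 273 CPM. All 11 reverted libraries were therefore far above both primed libraries and below the naive library. In edgeR's quasi-likelihood test with Benjamini-Hochberg adjustment, Klf2 was higher at d16+10p than in primed cells by 6.44 ± 0.59 on the log2 scale (87.1-fold, adjusted p = 6.38e-08). By summed counts within a line, the ratio of d16+10p to primed was 628 in Oct4GIP (95% exact binomial interval 113 to 24796) and 53.9 in 129/MSM (32.6 to 96.6). These intervals cover counting error only. The single count in primed Oct4GIP left that ratio almost open at its upper end. The fitted difference was 9.15 on the log2 scale without primed 129/MSM and 5.62 without primed Oct4GIP.

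Klf4 (chromosome 4, 55527143 to 55532466, minus strand), one of the factors used to reprogram somatic cells, stood at 332 CPM in the naive library. Primed Oct4GIP had 0.747 CPM and primed 129/MSM 3.86 CPM, which were 2 and 12 counts. At d16+10p it lay between 97.0 and 283 CPM with a median of 150 CPM, and the 2 highest values were those of the 129/MSM libraries (283 CPM for AICAR and 203 CPM for AICAR+LIF). At d16+2p and d16+3p the 4 libraries lay close together, from 116 to 126 CPM. Klf4 was higher at d16+10p than in primed cells by 6.09 ± 0.60 on the log2 scale (67.9-fold, adjusted p = 1.51e-07, edgeR). The size rested on the primed library used, with 7.69 on the log2 scale without primed 129/MSM and 5.40 without primed Oct4GIP. By summed counts the ratio was 180 in Oct4GIP (95% exact binomial interval 49.8 to 1488) and 62.6 in 129/MSM (35.7 to 121). Its mean at d16+10p, 163 ± 63.9 CPM (SD, n = 7), was 48.9% of the naive level, and the naive library lay above all 11 reverted ones.

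Klf5 (chromosome 14, 99298691 to 99315036, plus strand), a factor of the inner cell mass and trophectoderm, differed from Klf2 and Klf4 in being well above the floor in primed cells. It stood at 30.3 CPM in primed Oct4GIP and 44.1 CPM in primed 129/MSM. The naive library had 185 CPM, the d16+10p libraries 177 to 291 CPM with a median of 235 CPM, and the d16+2p and d16+3p libraries 166 to 180 CPM. The naive level thus fell inside the range at d16+10p. Klf5 was higher at d16+10p than in primed cells by 2.66 ± 0.38 on the log2 scale (6.34-fold, adjusted p = 1.48e-05).

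**Figure D1:**
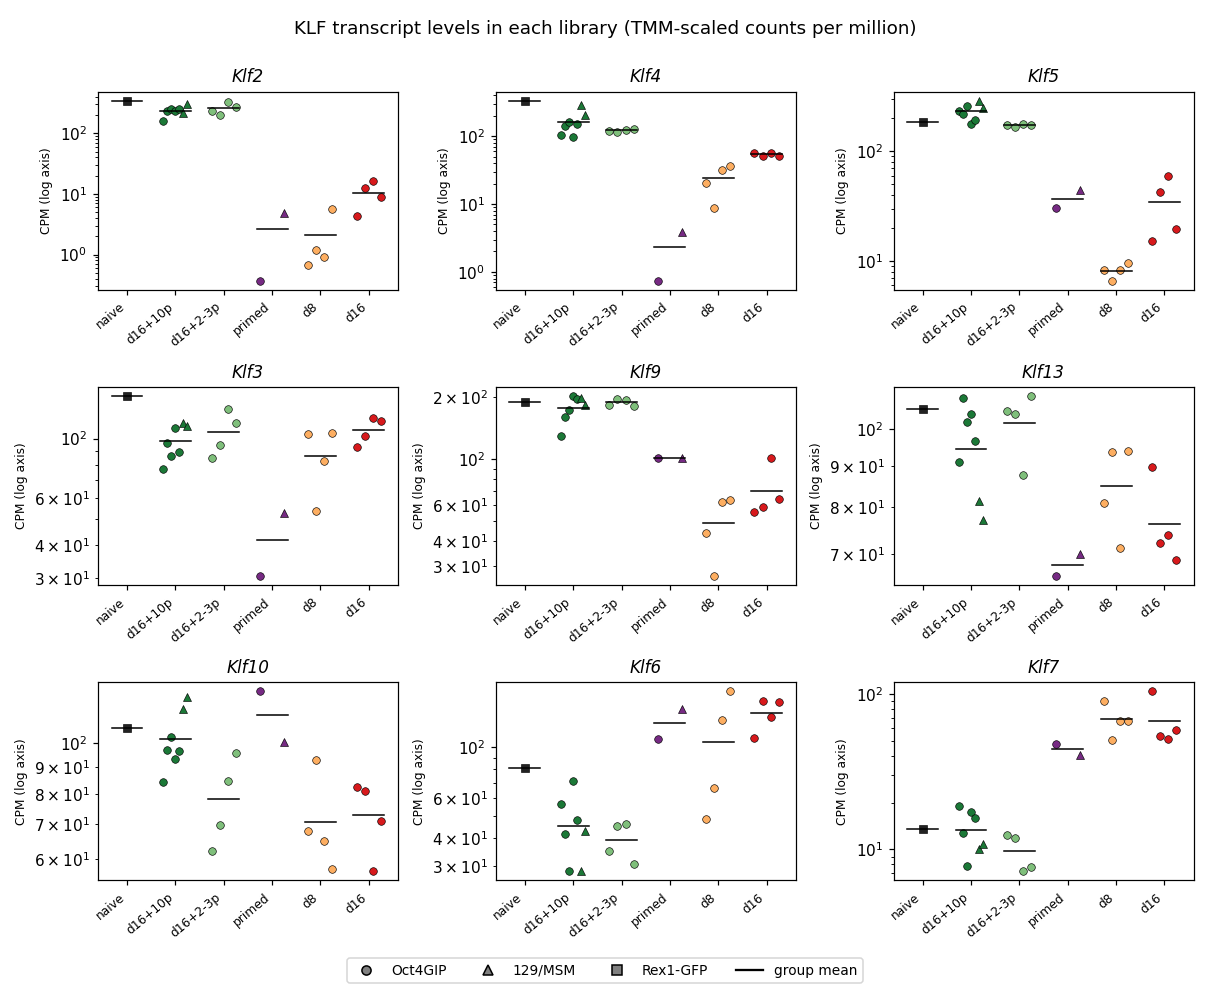
Level of each of the 9 KLF genes in each of the 22 libraries, in TMM-scaled CPM on log axes that differ between panels. Points are libraries, circles Oct4GIP, triangles 129/MSM and the square Rex1-GFP, and bars are group means. Klf2, Klf4 and Klf5 were low in the primed libraries and high in naive and reverted ones, and Klf6 and Klf7 showed the opposite order.

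Of the 9 members, 8 passed the test between d16+10p and primed cells at an adjusted p under 0.05, 6 of them higher and 2 lower, where 36.6% of the 18739 genes tested passed it (16.7% higher and 19.9% lower). The other members that rose did so by less. Klf3 (chromosome 5, 64803388 to 64832901, plus strand), mainly a repressor that recruits CtBP, was at 77.1 to 114 CPM at d16+10p and at 30.6 and 52.8 CPM in the primed libraries, without overlap. It was higher by 1.25 ± 0.25 on the log2 scale (adjusted p = 6.01e-04, edgeR). Klf9 (chromosome 19, 23141226 to 23168134, plus strand), a target of glucocorticoid and thyroid hormone receptors, was at 130 to 203 CPM against 101.2 and 101.8 CPM. Klf13 (chromosome 7, 63886351 to 63938915, minus strand), a factor best known from T cells and the heart, was at 77.1 to 109 CPM against 65.7 and 69.9 CPM. Klf9 was higher by 0.83 ± 0.25 on the log2 scale (adjusted p = 0.0128, edgeR) and Klf13 by 0.50 ± 0.16 (adjusted p = 0.0197, edgeR). Neither call held with 1 primed library. Without primed Oct4GIP the adjusted p was 0.0868 for Klf9 and 0.137 for Klf13, and without primed 129/MSM 0.0844 and 0.0718.

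Klf6 and Klf7 were the members that fell. Klf6 (chromosome 13, 5861482 to 5870394, plus strand), a widely expressed factor of epithelial, endothelial and mesenchymal cells, stood at 109 CPM in primed Oct4GIP and 148 CPM in primed 129/MSM. At d16+10p it was between 28.6 and 71.2 CPM with a median of 43.0 CPM, and at d16+2p and d16+3p between 30.6 and 46.1 CPM. The naive library, with 81.3 CPM, was above every reverted library and below both primed ones. Klf7 (chromosome 1, 64029447 to 64122282, minus strand), a factor of developing neurons, had 47.4 CPM in primed Oct4GIP and 40.6 CPM in primed 129/MSM. It was between 7.85 and 19.0 CPM at d16+10p with a median of 12.8 CPM and between 7.24 and 12.3 CPM at d16+2p and d16+3p, and the naive library had 13.4 CPM. Both genes thus differed between reverted and primed cells without overlap. With only 2 primed libraries, every member but Klf10 was without overlap between d16+10p and primed cells. Klf6 fell by 1.48 ± 0.33 on the log2 scale (adjusted p = 0.00150) and Klf7 by 1.70 ± 0.30 (adjusted p = 1.54e-04) in edgeR's test. In Oct4GIP libraries alone, Klf6 fell by 1.13 with an adjusted p of 0.0795. In this comparison 12 of the 14 fibroblast markers and 3 of the 4 smooth muscle markers were lower at d16+10p, and their part in the values of Klf6 and Klf7 was not tested. Between the primed libraries, of which 129/MSM had the higher sum of fibroblast markers, Klf7 was higher and Klf6 lower in Oct4GIP.

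Klf10 (chromosome 15, 38291463 to 38300706, minus strand), an early target of TGF-beta, was the member without a call. It stood at 126 CPM in primed Oct4GIP, at 100.8 CPM in primed 129/MSM, at 84.3 to 123 CPM at d16+10p and at 107 CPM in the naive library, so that the groups overlapped. The fitted difference was -0.13 ± 0.19 on the log2 scale (adjusted p = 0.645, edgeR).

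**Figure D2:**
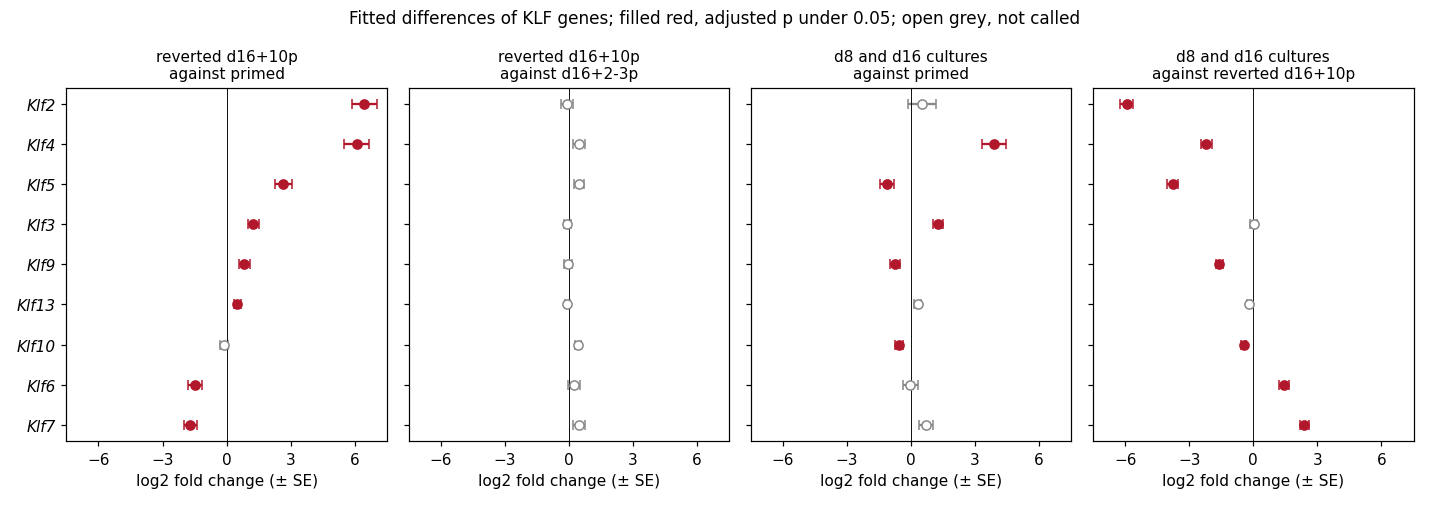
Fitted log2 fold changes of the 9 KLF genes in 4 comparisons between states, with bars of 1 standard error from edgeR's quasi-likelihood fit. Filled red points had an adjusted p under 0.05 and open grey points did not. Klf2 moved by 6.44 and -5.94 in the first and last panels, and no member passed between 10 and 2 or 3 passages.

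Between d16+10p and the libraries of d16+2p and d16+3p, 0 of the 9 members passed edgeR's test, where 9.35% of the genes tested did (4.75% higher and 4.61% lower). At an unadjusted p under 0.05 there were 4290 of 18739 genes and 1 member, Klf10. It stood at 62.2 and 69.8 CPM at d16+2p (AICAR and AICAR+LIF) and at 84.6 and 95.9 CPM at d16+3p. At d16+10p it was at 84.3 to 103 CPM in Oct4GIP and at 116 and 123 CPM in 129/MSM. The difference was 0.43 ± 0.16 on the log2 scale (adjusted p = 0.0941, edgeR). For Klf5, 1 of the 7 d16+10p libraries, A769662+LIF, lay inside the range of the earlier passages and the other 6 above it, and the difference was 0.47 ± 0.25 (adjusted p = 0.271, edgeR). With only these 11 libraries in edgeR's fit, Klf5 (adjusted p = 0.0218) and Klf10 (adjusted p = 0.0348) passed. Only d16+10p held libraries of 129/MSM, A769662 and metformin, so that line and activator were not balanced between the passage groups. The remaining members differed by -0.08 to 0.48 on the log2 scale, and all 9 overlapped between the passage groups.

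The naive library set against the range of the 7 d16+10p libraries gave values above it for Klf2, Klf3, Klf4 and Klf6 and within it for Klf5, Klf7, Klf9, Klf10 and Klf13. This placement was not tested, and the naive state and the Rex1-GFP line cannot be told apart. The ratio of the naive level to the d16+10p mean was 2.05 for Klf4, 1.79 for Klf6, 1.48 for Klf3 and 1.46 for Klf2. For the other members it lay between 0.797 (Klf5) and 1.12 (Klf13).

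Levels of different members were compared per kb of annotated exons, since longer transcripts yield more reads. The length was the union of exons over all annotated transcripts, from 1847 bases and 1 transcript for Klf2 to 11243 bases and 9 transcripts for Klf3. It can exceed the length of the transcript expressed, so that ranks and shares depend on this choice. On this scale Klf2 led in the naive library (187 CPM per kb) and at d16+10p (128 ± 23.3 CPM per kb, SD, n = 7). At d16+10p it was followed by Klf4 (53.3 ± 21.0), Klf5 (44.7 ± 7.45), Klf9 (37.0 ± 5.48) and Klf10 (24.4 ± 3.21 CPM per kb). The gap was larger than the summed SDs of the neighbours between Klf2 and Klf4 and between Klf9 and Klf10, and smaller between Klf4 and Klf5 and between Klf5 and Klf9. In primed cells Klf6 (29.2 ± 6.35), Klf10 (27.1 ± 4.25) and Klf9 (21.1 ± 0.0772 CPM per kb, SD, n = 2) led, and Klf2 and Klf4 were last with 1.41 ± 1.71 and 0.756 ± 0.723. In primed Oct4GIP alone Klf10 (30.1 CPM per kb) was above Klf6 (24.8). By group means Klf6 also led at d8 and d16. It was first in all 4 d16 libraries and in both AICAR libraries at d8, whereas at d8 Klf10 exceeded it in Basal medium (16.2 against 11.1) and in 2iL (22.2 against 15.1 CPM per kb).

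Klf2, Klf4 and Klf5 together made up 74.7% of the summed per-kb level of the 9 genes in the naive library. Their share was 64.6 to 73.7% at d16+10p and 66.2 to 72.7% at d16+2p and d16+3p. It was 6.30 and 11.2% in the primed libraries, 6.67 to 14.8% at d8 and 21.1 to 29.8% at d16. None of the 11 reverted libraries overlapped any primed library or whole culture in this share. That restates the differences of these 3 genes given for the same libraries and is not a separate result. The sum itself was 444 CPM per kb in the naive library, 246 to 376 in the reverted ones and 71.0 to 131 in primed cells and whole cultures.

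**Figure D3:**
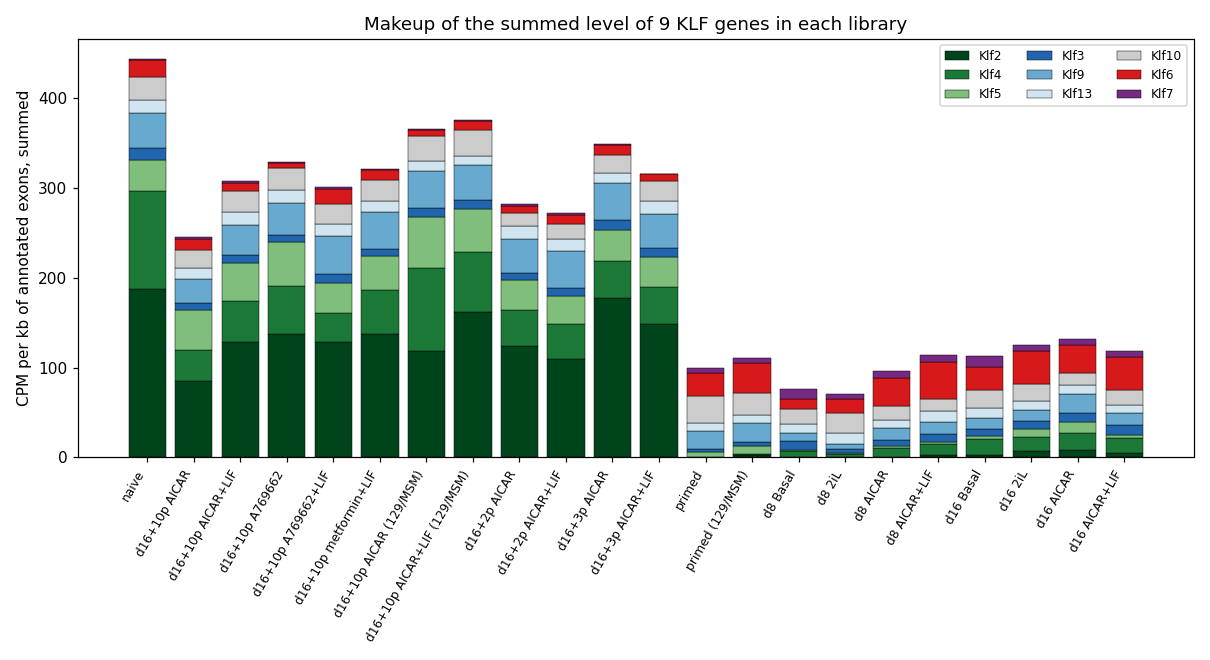
Makeup of the summed level of the 9 KLF genes in each library, in CPM per kb of annotated exons, with 1 bar per library. Klf2, Klf4 and Klf5 (greens) filled 64.6 to 74.7% of the bars of naive and reverted libraries and at most 29.8% of the others.

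Whole cultures at d8 and d16 were compared with primed cells, the state from which they were made. They were also compared with d16+10p, which came only from cells treated with an AMPK activator. Cultures in Basal medium and in 2iL are thus not precursors of d16+10p. The paper reports no successful reversion in either of these media. Both comparisons share their culture libraries, and the first shares the primed libraries with the comparison above. Against primed cells 5 of the 9 members passed edgeR's test, 2 higher and 3 lower, where 37.5% of all genes tested passed (18.1% higher and 19.4% lower). Against d16+10p 7 passed, 2 higher and 5 lower, where 72.7% of all genes passed (37% higher and 35.6% lower). The second count is thus near the background.

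Klf4 in whole cultures lay between the primed and the reverted levels. At d8 it was 20.6 CPM in Basal medium, 8.61 in 2iL, 31.96 in AICAR and 36.4 in AICAR+LIF, and at d16 it was 56.8, 50.3, 57.1 and 51.4 CPM in the same order. Every culture was above both primed libraries and below every reverted one. The difference was 3.89 ± 0.57 on the log2 scale from primed cells (14.8-fold, adjusted p = 3.68e-05) and -2.19 ± 0.25 from d16+10p in edgeR's test. The first value was 5.45 without primed 129/MSM and 3.20 without primed Oct4GIP. In the comparison with primed cells 10 of the 14 fibroblast markers, 3 of the 4 smooth muscle markers, 1 of the 4 endothelial markers and all 4 neural markers were also higher, and their part in the Klf4 values was not tested. Klf2, by contrast, was at 0.686, 1.17, 0.913 and 5.75 CPM at d8 in the same order of media, which were 1 to 3 counts, and at 4.27, 12.6, 16.4 and 8.93 CPM at d16. It overlapped the primed libraries (0.51 ± 0.65 on the log2 scale, adjusted p = 0.577, edgeR). That value rested on the primed library used. It was 3.17 (adjusted p = 0.0496) without primed 129/MSM and -0.32 (adjusted p = 0.760) without primed Oct4GIP. Against d16+10p, Klf2 was lower in whole cultures by a fitted 61.2-fold (-5.94 ± 0.33 on the log2 scale, edgeR).

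Klf5 in whole cultures was at 8.23, 6.65, 8.22 and 9.58 CPM at d8 and at 15.2, 43.0, 59.9 and 19.7 CPM at d16, in the order Basal, 2iL, AICAR and AICAR+LIF. All d8 cultures were below both primed libraries, and at d16 AICAR was above both. On average it was lower than in primed cells by -1.12 ± 0.33 on the log2 scale (adjusted p = 0.0110, edgeR) and lower than at d16+10p by -3.78 ± 0.24. Without primed 129/MSM the first value was -0.87 with an adjusted p of 0.144. Klf9 was at 27.0 to 63.2 CPM at d8 and 55.5 to 101.3 CPM at d16. It was lower than in primed cells by -0.76 ± 0.23 on the log2 scale (adjusted p = 0.0125, edgeR), which became an adjusted p of 0.0756 without primed Oct4GIP and 0.0536 without primed 129/MSM. Klf10, at 56.8 to 92.7 CPM, lay below both primed libraries (-0.58 ± 0.19 on the log2 scale, adjusted p = 0.0193, edgeR), and without primed Oct4GIP the adjusted p was 0.254. Klf3, at 53.6 to 120 CPM, lay above both primed libraries by 1.26 ± 0.25 (adjusted p = 6.48e-04, edgeR) and overlapped d16+10p (0.01 ± 0.15).

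Klf7 was high in every whole culture, and Klf6 in all but Basal medium and 2iL at d8. Klf7 was at 90.2, 50.5, 66.7 and 67.1 CPM at d8 and at 104, 53.6, 51.3 and 58.4 CPM at d16 in Basal, 2iL, AICAR and AICAR+LIF, so that every culture exceeded both primed and all reverted libraries. It was higher than at d16+10p by 2.39 ± 0.22 on the log2 scale (5.23-fold), and its difference from primed cells, 0.69 ± 0.32, had an adjusted p of 0.0971 in edgeR's test. Klf6 was at 48.7, 66.1, 132 and 176 CPM at d8 and at 109, 160, 136 and 158 CPM at d16. It overlapped primed cells (-0.04 ± 0.35) and was on average higher than at d16+10p by 1.44 ± 0.24 on the log2 scale (2.71-fold). Klf6 in Basal medium and 2iL at d8 lay inside the d16+10p range of 28.6 to 71.2 CPM and below both primed libraries. In the same order of media the smooth muscle markers summed to 218, 169, 647 and 1111 CPM at d8 and to 199, 612, 321 and 1211 CPM at d16, so that at d8 they were highest in the 2 libraries in which Klf6 was highest. The fibroblast markers spanned 3447 to 3738 CPM at d8. All 14 fibroblast, 4 smooth muscle and 4 neural markers were higher in whole cultures than at d16+10p, as was 1 of the 4 endothelial markers while 1 was lower, and their part in these differences was not tested.

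From d8 to d16, 3 of the 9 members rose in edgeR's test with AICAR as a covariate, where 31.2% of 14026 genes passed (18.1% higher). Klf2 rose by 2.69 ± 0.63 on the log2 scale (adjusted p = 0.0146), Klf5 by 2.01 ± 0.47 (adjusted p = 0.0145) and Klf4 by 1.27 ± 0.34 (adjusted p = 0.0235). Each of the 3 was higher at d16 in 4 of 4 media, as was Klf9, which was not called. By summed counts the Klf2 ratio of d16 to d8 was 7.49 (95% exact binomial interval 3.83 to 16.7), from 131 and 9 counts. These calls were fragile. With Basal d8 left out only Klf5 passed, with 2iL d8 left out only Klf4 passed, and with counts thinned to the smallest total Klf2 and Klf5 left the test and Klf4 had an adjusted p of 0.0597. The summed fibroblast markers also rose in each medium, by the least in Basal medium (3670 to 6312 CPM) and by the most in 2iL (3605 to 54316 CPM). The summed endothelial markers (Cdh5, Kdr, Tie1 and Tek) were 3.83 to 11.7 CPM at d8 and 34.2 to 230 CPM at d16. They were highest in AICAR d16. Among whole cultures Klf2, Klf3, Klf4, Klf5 and Klf9 were also highest there, Klf4 only narrowly (57.1 against 56.8 CPM in Basal d16). In this comparison 10 of 13 fibroblast markers tested and the 1 endothelial marker tested, Kdr, were higher at d16, and none of the 4 smooth muscle markers was called. The part of these cell types in the rise of Klf2, Klf4 and Klf5 was not tested.

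**Figure D4:**
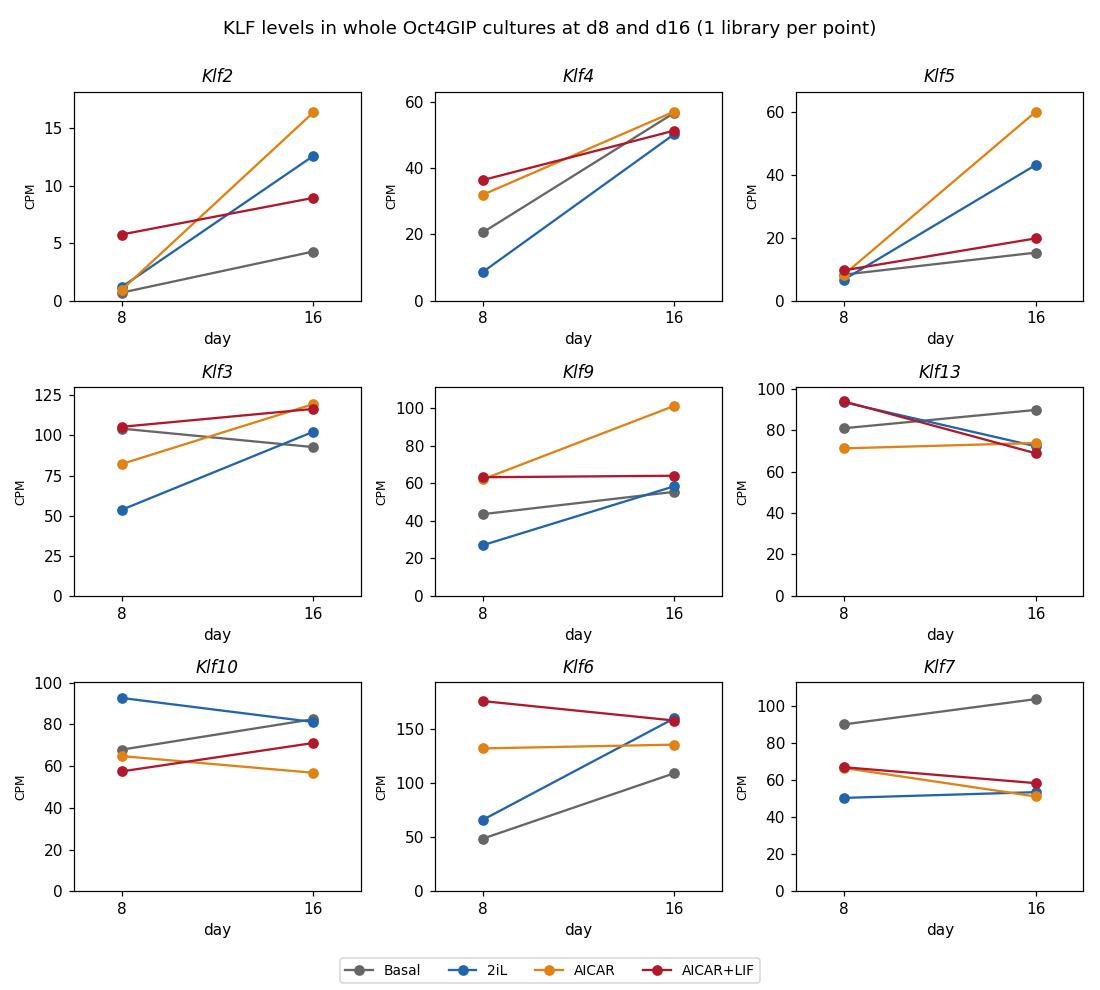
Levels of the 9 KLF genes in whole Oct4GIP cultures at d8 and d16, in TMM-scaled CPM with a separate axis from 0 for each gene and 1 library per point. Lines join the libraries of one medium. Klf2, Klf4, Klf5 and Klf9 were higher at d16 than at d8 in all 4 media, and Klf7 was highest in Basal medium on both days.

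AICAR-containing cultures were compared with Basal medium and 2iL over both days. None of the 9 members passed edgeR's test, where 9.6% of genes did (3.54% higher and 6.06% lower). At an unadjusted p under 0.05 there were 2 members and 4091 of 14026 genes. Klf9 was higher with AICAR by 0.71 ± 0.22 on the log2 scale (adjusted p = 0.0730, edgeR), and it was 62.1 and 63.2 CPM with AICAR against 43.6 and 27.0 CPM without it at d8. At d16 it was 101.3 and 64.0 CPM against 55.5 and 58.4 CPM, so that AICAR cultures were higher on each day. Klf6 was higher by 0.78 ± 0.32 (adjusted p = 0.142, edgeR). At d8 it was 132 and 176 CPM with AICAR against 48.7 and 66.1 CPM without, and at d16 136 and 158 CPM against 109 and 160 CPM, so that it separated at d8 and overlapped at d16. The change of the AICAR difference between days was -1.43 ± 0.39 on the log2 scale (adjusted p = 0.162, edgeR). Without 2iL d16, Klf6 passed with a difference of 1.01 (adjusted p = 0.0336). The 2 AICAR libraries at d8 had the lowest totals of all libraries, and their smooth muscle markers were above those of Basal medium and 2iL on that day. With counts thinned to the smallest total, Klf6 and Klf9 kept the sign of their differences and were again not called. The part of the smooth muscle markers in the Klf6 values was not tested.

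LIF was examined in whole cultures, where AICAR+LIF and 2iL were set against AICAR and Basal medium, and in expanded cells treated with or without LIF during reversion. In 2iL cultures LIF and the inhibitors cannot be told apart. In cultures 0 of the 9 members and 0 of 14026 genes passed edgeR's test, with 653 genes at an unadjusted p under 0.05 and no member. DESeq2 called 27 genes and limma voom none. In expanded cells 0 of the 9 members and 0 of 12821 genes passed, with 310 genes at an unadjusted p under 0.05, and neither DESeq2 nor limma voom called any gene. Klf5 was the only member at that level. It was lower with LIF in 5 of 5 pairs of the same line, activator and passage, by -0.20 ± 0.09 on the log2 scale (adjusted p = 0.9998, edgeR).

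The lines 129/MSM and Oct4GIP were compared in 3 matched states, primed cells and d16+10p after AICAR or AICAR+LIF. None of the 9 members passed edgeR's test, where 0.116% of 12954 genes did (0.0926% higher and 0.0232% lower in 129/MSM). At an unadjusted p under 0.05 there were 2 members and 1422 of the 12954 genes. Klf4 was higher in 129/MSM in 3 of 3 states, with 3.86 against 0.747 CPM in primed cells, 283 against 103 CPM after AICAR and 203 against 142 CPM after AICAR+LIF. The difference was 1.10 ± 0.30 on the log2 scale (adjusted p = 0.238, edgeR). Klf3 was higher in 3 of 3 states by 0.51 ± 0.20 (adjusted p = 0.423, edgeR). Klf2, Klf5 and Klf9 were also higher in 129/MSM in 3 of 3 states, and Klf7 was lower in 3 of 3. Without either primed library Klf4 passed, with a difference of 0.97 in each case. With states as blocks, a primed library left alone adds nothing to the difference. Both fits therefore rest on the same d16+10p libraries and are not separate results. Over all genes, 3 to 1402 were called with 1 library left out. Line, feeder and base medium could not be told apart in primed cells, since only 129/MSM was kept on feeders and the base media differed. The lines also differ in sex, Oct4GIP being XX and 129/MSM XY.

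Over the 22 libraries, levels of the members moved together or apart as their group means did, on log2 CPM with a prior count of 2. Pearson's r was 0.94 for Klf2 with Klf5, 0.89 for Klf2 with Klf9, 0.84 for Klf2 with Klf4 and 0.82 for Klf3 with Klf4. It was -0.92 for Klf2 with Klf7 and -0.68 for Klf2 with Klf6, and 0.79 for Klf6 with Klf7. Klf10 and Klf13 had an r of 0.02 with each other. The libraries fall into a few states and differ in depth, so that r describes mainly the contrast between states. Among 11181 genes with a mean log2 CPM of at least 3, those most like Klf2 were Eif4e2 (r = 0.98), Myh13 (0.97) and Cluh (0.97). Genes among those most like Klf5 were Helb and Lap3 (0.96 each), and those most like Klf4 were Zbtb38, Camk1d and Dlc1 (0.91 each). Klf6 was most like Furin (0.94), Itgb1 (0.93) and Kif1c (0.92), and Klf7 most like Katnal1 (0.97), Tmed4 (0.96) and Dtx4 (0.96). Klf9 was most like Hspe1, Ppia (0.96 each) and Exosc5 (0.95), Klf10 like Psat1 (0.89), Shmt2 and Pycr1 (0.88 each) and Klf13 like Ambra1, Baz1b (0.82 each) and Nfya (0.81). After Klf4, Klf3 was most like Pcgf2 (0.78) and Opa3 (0.77).

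Related genes outside the 9 members were followed as lists. Of the other KLF genes 6 of 8 were tested between d16+10p and primed cells, and 2 rose and 1 fell, where 36.6% of all genes passed in either direction. Klf8 was at 74.6 to 115 CPM at d16+10p against 11.9 and 20.5 CPM in primed cells (2.55 on the log2 scale), and Klf16 at 42.8 to 60.9 CPM against 30.3 and 36.7 CPM (0.68). The fall of Klf14 rested on 12 counts in 1 primed library. In the comparison of cultures with d16+10p, 5 of the 6 passed, where 72.7% of all genes did, and Klf8 and Klf16 were lower by 3.82 and 1.91 on the log2 scale.

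The SP genes, which share the zinc fingers and the GC box with KLFs, had 4 of 7 tested members higher at d16+10p than in primed cells and none lower, where 16.7% of all genes were higher and 19.9% lower. Sp5, a target of Wnt signalling, was at 37.6 to 84.5 CPM at d16+10p against 0 and 2.90 CPM in primed cells. It was also higher at d16+10p than at d16+2p and d16+3p, where it was at 3.65 to 18.2 CPM (2.61 on the log2 scale, adjusted p = 0.00151, edgeR). Sp2 rose by 2.00, Sp3 by 0.70 and Sp1 by 0.68 on the log2 scale from primed cells to d16+10p.

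Of 11 genes for cofactors and turnover of KLF proteins, 5 were higher at d16+10p than in primed cells and none lower, against the same 16.7% and 19.9% of all genes. The acetyltransferase Kat2b rose by 2.11, the deacetylase Hdac1 by 1.55, the corepressor scaffold Sin3a by 0.65 and the ubiquitin ligase subunit Fbxw7 by 0.60 on the log2 scale. Of 15 genes for signals that act on KLF genes, 4 were higher and 7 lower in that comparison. Il6st, the shared receptor subunit for LIF, rose by 1.77 and Socs3, a STAT3 target, by 1.75, whereas Tgfbr2, a TGF-beta receptor, fell by 2.39 and Thra, a thyroid hormone receptor, by 1.84 on the log2 scale. Against whole cultures none of the 15 was higher at d16+10p and 12 were lower, where 72.7% of all genes passed and 37% were lower at d16+10p.

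Of 9 naive partner genes 8 were higher at d16+10p than in primed cells, with a median difference of 6.49 on the log2 scale for the 9, against 0.83 for the KLF members and -0.01 for all genes tested. Zfp42 rose by 10.20, Esrrb by 9.12, Prdm14 by 8.28 and Nr5a2 by 8.27 on the log2 scale. In whole cultures Zfp42 was at 0 to 0.371 CPM and Esrrb at 0 to 3.09 CPM. Of the 9 partners, 3 were lower in whole cultures than in primed cells and 1, Gbx2, was higher (4.54 ± 1.11 on the log2 scale, adjusted p = 0.00334, edgeR), where 37.5% of all genes passed. Gbx2, named after its values were seen, was at 0.913 to 46.6 CPM at d8 and 3.40 to 16.3 CPM at d16 against 0.747 and 0.322 CPM in the primed libraries.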

How the data were processed

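Stranded mRNA libraries had been sequenced as single reads on a HiSeq2500. Per the methods and the submitters' processing notes, the authors mapped reads with Bowtie2 2.2.5 (very-sensitive-local) to cDNA and ncRNA sequences of Ensembl GRCm38, and alignments with a MAPQ under 1 were dropped. The deposited gene table holds raw counts without normalization, as whole numbers. A read that matches several KLF or SP genes equally may therefore have been dropped or credited to any of them. The deposited transcript counts and numbers of detected genes were not used here.

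Libraries were grouped by state from their labels. The 9 members were matched by symbol. They and all gene lists were chosen with earlier results of these data known. Counts were tested with edgeR 4.0.16 in R 4.3.3 (quasi-likelihood test, genes kept by filterByExpr on the groups, TMM factors after that filter, Benjamini-Hochberg adjustment over all genes tested, calls at an adjusted p under 0.05) in 9 comparisons. The 4 comparisons between states came from one fit of all 22 libraries in 6 groups, and the others from the libraries they name, with day, AICAR, pair or state as covariates. CPM used TMM factors over all genes. Tests of how a difference changed between days, lines or media (AICAR by day, reversion by line, LIF by AICAR) were added after the data were seen. The scripts were tested on simulated data with 200 changed genes per comparison.

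All 9 members are named. From each list up to 4 genes called in the comparisons between states are named, taken by the size of the difference between d16+10p and primed cells, and for each member the 3 genes with the highest Pearson r, of which 1 is not reported here. Alternatives used DESeq2 1.42.0, limma 3.58.1 (voom), other size factors, no filter or at least 10 counts in every library, thinned counts, subsets of libraries and each library left out in turn. Positions are from GENCODE M21 on GRCm38 and per-kb levels use the union of annotated exons. Promoters are from RefSeq, and 7 of the 9 members matched. Other calculations used Python 3.11.15, numpy 2.4.6 and pandas 2.3.3, and figures matplotlib 3.10.9.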

Additional observations from a re-analysis of the deposited data

Results flagged for a closer look

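Levels of the 9 KLF genes were screened for a single library far from the others in each group of 4 to 10 libraries, which gave 36 groups. Chance flags about 1 in 20 such groups, and 2 were flagged. Klf2 in AICAR+LIF d8 was at 5.75 CPM, against 0.686 to 1.17 CPM in the other d8 cultures. This value is 3 counts in the library with the lowest total, which is the detection floor. Klf7 in Basal d16 was at 104 CPM, against 51.3 to 58.4 CPM in the other d16 cultures, from 560 counts in the library with the highest total. Basal medium also had the highest Klf7 level at d8, 90.2 CPM. No change of a difference between lines, days or media passed the test for any of the 9 genes.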

How the results depend on the processing

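Between d16+10p and primed cells, the members called ranged from 6 to 8 with 1 library left out and were 5 with at least 10 counts in every library, a setting under which Klf2, Klf4 and Klf5 could not be tested. Between d16+10p and the earlier passages 2 were called with only the groups compared. For cultures against primed cells 3 were called with at least 10 counts, with thinned counts, with only the groups compared and with Oct4GIP alone, and 3 to 5 with 1 library left out (3 without primed Oct4GIP). Against d16+10p 4 were called with at least 10 counts. From d8 to d16, 1 was called with at least 10 counts, 0 with thinned counts and 1 to 4 with 1 library left out (1 without Basal d8 or 2iL d8). With AICAR 2 were called with no filter and 0 to 1 with 1 library left out. Between lines 1 was called with no filter and 0 to 1 with 1 library left out (1 without either primed library). Over all genes, calls under other settings ranged from 2880 to 7072 for d16+10p against primed cells (6863 as reported), 586 to 3002 against earlier passages (1753), 3477 to 7441 for cultures against primed cells (7032), 5671 to 14406 against d16+10p (13614), 2198 to 5522 from d8 to d16 (4383), 0 to 3143 with AICAR (1347) and 0 to 929 between lines (15). For LIF they reached 320 genes in cultures and 44 in expanded cells, against 0 as reported.

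Signs turned only for differences that had not been called, given here on the log2 scale. Klf6 in cultures against primed cells was 0.055 with DESeq2, 0.041 with RLE size factors, 0.0072 with at least 10 counts, 0.30 with thinned counts, 0.15 with Oct4GIP alone and -0.25 to 0.15 with 1 library left out. Klf2 in the same comparison was -0.32 to 3.17 with 1 library left out. Klf3 in cultures against d16+10p was -0.022 with limma voom, -0.028 with no filter, -0.13 without the 3 lowest totals and -0.076 to 0.076 with 1 library left out. Against earlier passages Klf13 was 0.00048 with Oct4GIP alone, and with 1 library left out Klf2 was -0.17 to 0.042, Klf3 -0.16 to 0.035 and Klf9 -0.081 to 0.0049. Klf10 between d16+10p and primed cells was -0.29 to 0.040 in the same way. From d8 to d16 Klf10 was -0.13 with no normalization factors and -0.12 to 0.078 with 1 library left out, and Klf7 was 0.017 with at least 10 counts, 0.19 in cultures without AICAR (a setting added after seeing the data) and -0.39 to 0.055 with 1 library left out. With AICAR, Klf5 was -0.13 to 0.90 and Klf7 -0.47 to 0.012 with 1 library left out. For LIF in cultures, Klf13 was -0.0016 with no normalization factors, Klf3 0.15 and Klf4 0.13 with thinned counts, Klf2 -0.56, Klf3 0.13 and Klf7 0.15 in AICAR cultures alone, and Klf3 0.057 and Klf13 -0.20 at d16 alone (added after seeing the data). With 1 library left out Klf2 was -0.043 to 1.55, Klf3 -0.24 to 0.11, Klf4 -0.55 to 0.032, Klf5 -0.71 to 0.54 and Klf13 -0.048 to 0.17. For LIF in expanded cells, Klf7 was -0.098 with thinned counts, Klf6 -0.038 and Klf7 -0.15 in the AICAR pairs alone, and with 1 library left out Klf2 was -0.0034 to 0.18, Klf6 -0.038 to 0.46 and Klf7 -0.15 to 0.36. Between lines Klf6 was 0.083 with no state block and -0.44 to 0.27 with 1 library left out. The cause was not tested, except that filters and thinning remove low genes by construction.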
